A study of Rattus norvegicus with 70 samples.

Results

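The genes described are 8 that are widely used as marks of mesothelium, the cell sheet on the surface of internal organs and body cavities: Upk3b, Upk1b, Msln, Lrrn4, Gpm6a, Rspo1, Wnt2b and Bnc1. They were chosen by name, with earlier results of these data known, and matched by NCBI gene number to rat symbols. They were looked for in the 6 deposited count tables, each of which lists 15319 genes. Of the 8, 6 have a row in every table and are described here; Upk3b and Lrrn4 were not analysed here. They were followed in bulk RNA-seq libraries of 3 fat depots, visceral (VAT), subcutaneous (SAT) and brown (BAT), taken from adolescent rats of the outbred Sprague-Dawley stock. The series asks how nose-only inhalation of PCB 52, a chlorinated biphenyl found in indoor air, alters gene expression in fat.

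The PCB 52 rats carry the numbers 13 to 24 and the sham rats the numbers 1 to 12. Odd numbers are males and even numbers females. Rats breathed PCB 52 or sham air for 4 h a day over 28 days. Males were 39 days old at the first exposure and females 42 days old, which ties age to sex. No genetic change or other agent is named for any group, and the labels do not say from which pad the VAT was taken. The 70 libraries form 12 groups of sex, depot and treatment with 6 libraries each, except male VAT PCB 52 and female SAT sham with 5 each. Equal numbers in different depots were read as the same rat, which the labels do not state in words.

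Mesothelium is a single layer of flat cells of mesodermal origin that carries keratins as epithelia do and secretes the fluid on which organs glide. It covers visceral fat pads where they face the peritoneal cavity, while subcutaneous and brown fat lie outside that cavity. Msln encodes mesothelin, a glycoprotein tethered to the cell surface, Upk1b a tetraspanin of the uroplakin group, and Gpm6a a membrane protein of the proteolipid family best known from neurons. Bnc1 encodes basonuclin, a zinc finger protein of the nucleus known from keratinocytes and germ cells. Wnt2b and Rspo1 encode secreted signals: a WNT ligand, and an R-spondin, which acts through LGR receptors to strengthen WNT signalling.

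Promoter sequences are shown for Upk1b, Gpm6a and Bnc1, because these and Msln varied most closely together among VAT libraries. They are the 250 bases before each gene's start in RefSeq, assembly GRCr8, written 5′ to 3′ on the gene's strand. RefSeq's table had an entry for 7 of the 8 genes. Upk1b lies at chr11:75459131-75459380 on the plus strand, Gpm6a at chr16:43706462-43706711 on the minus strand and Bnc1 at chr1:145352535-145352784 on the minus strand. The counts were made on the older build rn6, per the submitters' processing notes, and no coordinate of that build is given. Capitals mark matches to any of 4 short motifs, read on both strands. The GC box was searched as GGGCGG. The box named for its letters was searched as CCAAT. The core that TEAD factors bind was searched as GGAATG. The TATA box was searched as TATAAA.
Upk1b: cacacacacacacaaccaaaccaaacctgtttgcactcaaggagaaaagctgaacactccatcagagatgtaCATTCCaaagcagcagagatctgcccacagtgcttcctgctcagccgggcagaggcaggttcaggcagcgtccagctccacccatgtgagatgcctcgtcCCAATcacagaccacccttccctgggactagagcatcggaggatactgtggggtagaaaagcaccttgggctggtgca
Gpm6a: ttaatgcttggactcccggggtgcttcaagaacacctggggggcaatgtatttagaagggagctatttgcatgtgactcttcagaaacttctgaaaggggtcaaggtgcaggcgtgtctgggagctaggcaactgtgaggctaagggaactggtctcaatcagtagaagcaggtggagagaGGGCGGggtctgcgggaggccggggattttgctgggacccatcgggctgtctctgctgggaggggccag
Bnc1: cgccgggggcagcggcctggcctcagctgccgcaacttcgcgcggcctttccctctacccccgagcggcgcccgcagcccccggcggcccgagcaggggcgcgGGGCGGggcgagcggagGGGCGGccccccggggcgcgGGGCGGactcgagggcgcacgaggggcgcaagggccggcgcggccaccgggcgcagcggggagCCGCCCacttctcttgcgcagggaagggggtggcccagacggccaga
The Upk1b stretch holds CCAAT, which begins 78 bases before the start, and CATTCC, the reverse of GGAATG, at 178 bases. The Gpm6a stretch holds GGGCGG at 69 bases. Bnc1 has GGGCGG at 147, 130 and 110 bases and its reverse CCGCCC at 47 bases, in a stretch that is 82.0% G and C, against a median of 51.2% over 33469 rat promoters of the same length. None of the marked matches overlap. GGGCGG occurred in 3 of the 7 members' promoters and 30.5% of all, CCAAT in 1 of 7 and 34.0%, GGAATG in 2 of 7 and 12.1%, and TATAAA in 0 of 7 and 12.9%. These matches describe letters and not sites in use.

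Library totals ran from 4604116 to 9707132 counts. Levels are given as CPM, counts scaled to the library's plain total, and a count of 0 allowed up to 0.309 to 0.652 CPM in a single library, for counting error only. The tissue labels were checked against Ucp1, the uncoupling protein of brown fat, which had 2892 to 9569 CPM in 23 of the 24 BAT libraries. The other, female BAT PCB 52 animal 24, had 113.6 CPM of Ucp1 and 247.5 CPM of summed brown adipocyte markers, where the other 5 libraries of PCB 52 females had sums of 6741 to 11208 CPM, which goes against its label. Adipoq, the adipocyte hormone gene, ran from 4379 to 9219 CPM in VAT. It had 301.5 to 6110 CPM in SAT and 1656 to 3825 CPM in BAT. Summed markers of mammary and surface epithelium were 3.29 to 229667 CPM in SAT and at most 575.2 CPM in VAT. Summed skeletal muscle markers reached 16477 CPM in SAT, 37133 CPM in BAT and 854.8 CPM in VAT. The part of these tissues in differences between depots was not tested. Some libraries stood apart. Ucp1 reached 337.7 CPM among female VAT sham libraries, and the summed brown adipocyte markers were 570.5 CPM in animal 4 and 338.7 CPM in animal 8, against 45.1 to 61.6 CPM in the other 4 of that group. Summed skeletal muscle markers were 854.8 CPM in animal 8 and 11.1 to 29.8 CPM in the other 5. Of 10954 genes with at least 1 CPM in the rest of its group, 592 were at 0 in male VAT PCB 52 animal 13, none of them on the chromosomes that hold the 6 members. In female SAT sham animal 8, 1018 of 11356 such genes were at 0, among them 6.98% to 13.3% of those on each chromosome that holds a member; Bnc1 had no read there and Wnt2b 0.135 CPM. Without that library the same 5 members were called higher in VAT than in SAT of sham females.

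Each of the 6 mesothelial genes had its highest group medians in VAT, in both sexes and both treatments. Msln had the largest fold change over SAT in all 4 groups and reached 392.2 CPM in VAT, against at most 14.7 CPM in SAT and 1.59 CPM in BAT. In PCB 52 and sham males and in PCB 52 females all 6 genes were called higher in VAT than in SAT. In sham females 5 were called, Rspo1 being the exception. A call required an adjusted p under 0.05 in edgeR's quasi-likelihood test with Benjamini-Hochberg adjustment over all genes tested, and a log2 fold change over 1. The share of all genes so called was 4.38% in PCB 52 males, 4.15% in sham males, 10.2% in PCB 52 females and 11.8% in sham females. As the members were chosen with earlier results of these data known, these shares give scale and not an independent test. The members' median log2 fold change was 3.94, 2.52, 2.47 and 2.45 in the same order of groups, against -0.14, 0.01, -0.09 and -0.10 over all genes. At a log2 fold change over 3 the members called were 6 in PCB 52 males (0.579% of all genes), 2 in sham males (0.679%), 2 in PCB 52 females (0.701%) and 1 in sham females (1.36%). With the rat as a block, Upk1b (adjusted p = 0.062) and Gpm6a (adjusted p = 0.0583) lost their calls in sham males and Gpm6a (adjusted p = 0.0787) in sham females, which left 4 members called in each. Every VAT library lay above every SAT library for 5 of 6 members in PCB 52 males (5.88% of all genes), 3 in sham males (7.04%), 5 in PCB 52 females (10.3%) and 1 in sham females (11.3%). In bulk tissue, fewer cells of a type and less RNA per cell cannot be told apart.

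**Figure D1:**
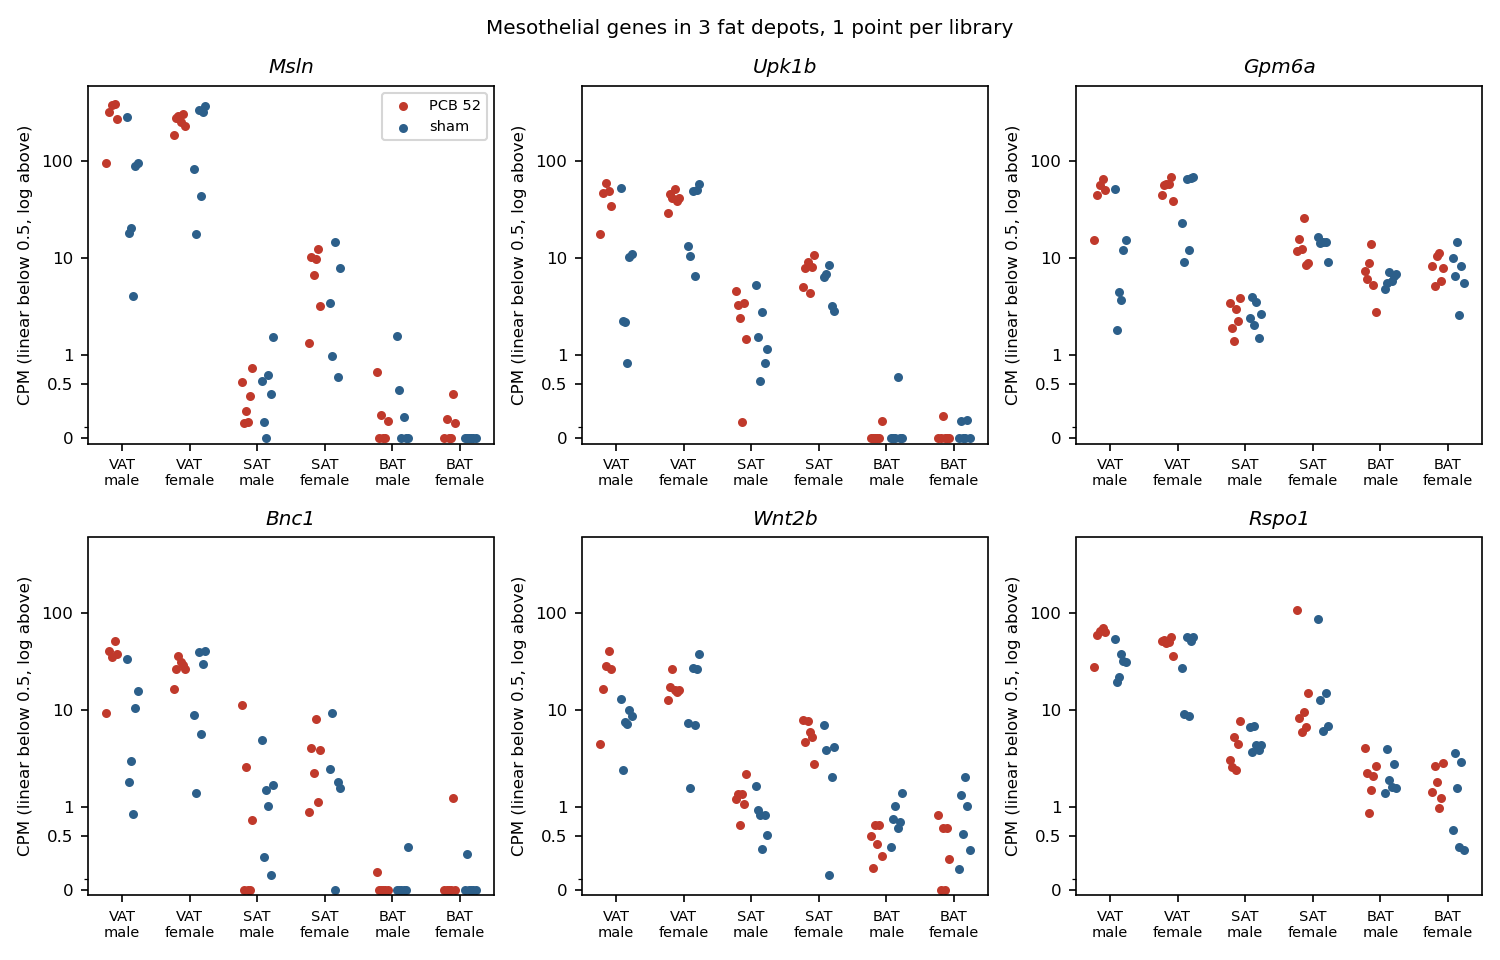
CPM of the 6 mesothelial genes in all 70 libraries, 1 point per library (linear axis below 0.5 CPM, logarithmic above), by depot and sex, PCB 52 in red and sham in blue. Apart from 2 female SAT libraries of Rspo1, at 108.3 and 86.3 CPM, the highest points of every gene are in VAT, and Msln, Upk1b and Bnc1 fall to or near 0 in BAT.

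Among the surface proteins, Msln had 97.4, 325.5, 380.9, 392.2 and 274.7 CPM in the male VAT PCB 52 libraries, against a lowest, median and highest value of 0.136, 0.326 and 0.729 CPM in male SAT PCB 52. In male sham rats it had 4.04, 54.8 and 289.5 CPM in VAT and 0, 0.477 and 1.53 CPM in SAT. In females, PCB 52 libraries had 187.9, 267.2 and 310.2 CPM in VAT and 1.33, 8.26 and 12.4 CPM in SAT, while sham libraries had 17.8, 205.6 and 377.1 CPM in VAT and 0.597, 3.44 and 14.7 CPM in SAT. Every VAT library lay above every SAT library in all 4 pairs. The log2 fold change of VAT over SAT was 9.46 (SE 0.545, adjusted p = 1.04e-13) in PCB 52 males and 7.04 (SE 1.16, adjusted p = 0.000118) in sham males. It was 5.42 (SE 0.415, adjusted p = 5.26e-11) in PCB 52 females and 4.84 (SE 1.05, adjusted p = 0.000463) in sham females. The difference between sham males and sham females in this contrast was not called for any of the 6 members by edgeR, DESeq2 or limma-voom. With edgeR 20.7% of all genes were called. Of the members, 1 passed an unadjusted p of 0.05, Rspo1, with a male minus female difference of 1.94 (SE 0.736, adjusted p = 0.057), a mark that 34.9% of all genes passed. For VAT over BAT the same test called 0 members and 0.45% of all genes.

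Upk1b had 17.8, 47.3, 59.7, 48.9 and 34.3 CPM in male VAT PCB 52, against 0.149, 2.85 and 4.62 CPM (lowest, median, highest) in male SAT PCB 52. In sham males the corresponding values were 0.832, 6.28 and 53.5 CPM in VAT and 0.545, 1.34 and 5.30 CPM in SAT. The depots were separate in PCB 52 males and overlapped in sham males. VAT over SAT gave a log2 fold change of 3.87 (SE 0.407, adjusted p = 5.43e-08) in PCB 52 males and 2.50 (SE 0.762, adjusted p = 0.0201) in sham males. In females Upk1b had medians of 41.7 CPM in VAT PCB 52 and 31.4 CPM in VAT sham, against 8.05 CPM in SAT PCB 52 and 6.46 CPM in SAT sham, with log2 fold changes of 2.72 (SE 0.372) and 2.34 (SE 0.786) of VAT over SAT.

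Gpm6a, unlike Msln, was above 1 CPM in every SAT library. Male PCB 52 libraries had 15.3, 45.1, 57.3, 65.5 and 50.4 CPM in VAT and 1.41 to 3.93 CPM in SAT, and male sham libraries 1.81 to 51.8 CPM in VAT and 1.51 to 4.00 CPM in SAT. Female medians were 57.3 CPM in VAT PCB 52 and 44.3 CPM in VAT sham, against 12.2 CPM in SAT PCB 52 and 14.8 CPM in SAT sham. VAT and SAT were separate in the PCB 52 rats of both sexes and overlapped in the sham rats of both sexes. The log2 fold change of VAT over SAT was 4.01 (SE 0.384, adjusted p = 1.02e-08) in PCB 52 males, 2.30 (SE 0.583, adjusted p = 0.00566) in sham males, 2.22 (SE 0.338, adjusted p = 4.81e-06) in PCB 52 females and 1.49 (SE 0.577, adjusted p = 0.033) in sham females.

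Bnc1, the nuclear member, had 9.36, 40.3, 34.8, 51.1 and 37.5 CPM in male VAT PCB 52 and a median of 0.364 CPM in male SAT PCB 52, where 1 library, animal 13, reached 11.1 CPM. In sham males the medians were 6.63 CPM in VAT and 1.25 CPM in SAT. Female medians were 27.8 CPM in VAT PCB 52 and 19.3 CPM in VAT sham, against 3.03 CPM in SAT PCB 52 and 1.79 CPM in SAT sham. All 4 groups of VAT were called higher than SAT, with log2 fold changes of 3.69 (SE 0.813) in PCB 52 males, 2.50 (SE 0.852) in sham males, 3.29 (SE 0.778) in PCB 52 females and 2.94 (SE 0.906) in sham females. The libraries of the 2 depots were separate in PCB 52 females and overlapped in the other 3 pairs.

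Of the secreted signals, Wnt2b had 4.42, 16.5, 28.2, 40.1 and 26.6 CPM in male VAT PCB 52, against at most 2.19 CPM in male SAT PCB 52, and 2.41 to 13.1 CPM in male VAT sham, against at most 1.63 CPM in male SAT sham. Its female means were 17.3 ± 4.83 CPM in VAT PCB 52 and 17.9 ± 14.6 CPM in VAT sham (SD, n = 6 each), and its medians in female SAT were 5.53 CPM in PCB 52 and 3.80 CPM in sham. The log2 fold change of VAT over SAT was 4.04 (SE 0.448) in PCB 52 males, 3.06 (SE 0.606) in sham males, 1.88 (SE 0.392) in PCB 52 females and 2.55 (SE 0.603) in sham females, all called. Wnt2b libraries of VAT and SAT overlapped in sham females, where 1 VAT library had 1.55 CPM.

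Rspo1 had 27.9, 58.7, 65.5, 69.8 and 62.8 CPM in male VAT PCB 52 and 2.38 to 7.72 CPM in male SAT PCB 52. Male sham libraries had 19.4 to 53.1 CPM in VAT and 3.69 to 6.81 CPM in SAT. In both, every VAT library was above every SAT library, and the log2 fold changes were 3.60 (SE 0.549, adjusted p = 3.81e-05) and 2.55 (SE 0.538, adjusted p = 0.00121). Female SAT held 1 library in each treatment far above the rest, animal 14 of the PCB 52 group with 108.3 CPM and animal 2 of the sham group with 86.3 CPM, while the PCB 52 medians were 50.7 CPM in VAT and 8.87 CPM in SAT, and the sham medians 39.5 CPM in VAT and 12.7 CPM in SAT. The female log2 fold change was 1.25 (SE 0.484, adjusted p = 0.0331) in PCB 52 rats and 0.60 (SE 0.528, adjusted p = 0.361) in sham rats. Without SAT animal 2, the sham value became 1.82 (adjusted p = 0.00308), past the threshold.

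Some of these calls rested on single libraries. Male VAT sham animal 1 was the highest of its group for all 6 genes, and without it the calls of Upk1b (log2 1.11, adjusted p = 0.277), Gpm6a (1.26, adjusted p = 0.0784) and Bnc1 (1.67, adjusted p = 0.179) in sham males were lost. The same 3 were lost with limma-voom and sample weights. Gpm6a in sham females was no longer called without animal 6, 10 or 12 of either depot (adjusted p 0.0518 to 0.0814), and Rspo1 in PCB 52 females without SAT animal 16, 18, 20, 22 or 24 (adjusted p 0.0699 to 0.0805). Bnc1 in sham males also missed the threshold without any 1 of 5 male SAT or 2 BAT sham libraries (adjusted p 0.0507 to 0.0744).

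In BAT Msln, Upk1b and Bnc1 were almost without reads. Over whole groups of 6 libraries, Msln had 6 reads in PCB 52 males, 12 in sham males, 4 in PCB 52 females and 0 in sham females. Upk1b had 1, 3, 1 and 2 reads in the same order, and Bnc1 had 1, 2, 6 and 2. With 3 counts over the group as the floor for 0 reads, the mean of Msln in VAT of sham females (197.8 CPM) was at least 2201-fold that in BAT. This bound covers counting error in BAT and not the range of 17.8 to 377.1 CPM among the VAT libraries. Wnt2b lay between 0 and 2.00 CPM and Rspo1 between 0.37 and 3.99 CPM in all BAT libraries, while Gpm6a had 2.60 to 14.8 CPM. VAT over BAT was called for 6 of 6 members in PCB 52 males (9.52% of all genes), 5 of 6 in sham males (13.2%), 6 of 6 in PCB 52 females (7.27%) and 6 of 6 in sham females (7.65%). All 6 were also called in PCB 52 females without BAT animal 24. The member that was not called was Gpm6a in sham males, with a log2 fold change of 0.96 (SE 0.554, adjusted p = 0.169), against 2.36 (SE 0.357, adjusted p = 4.85e-06) in PCB 52 males. Its value in sham males turned to -0.082 without VAT animal 1. Rspo1 had log2 fold changes of VAT over BAT from 3.57 to 4.56 and Wnt2b from 2.99 to 5.34 over the 4 groups.

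Between the depots outside the abdominal cavity, 5 of 6 members were called higher in SAT than in BAT in sham females, where 20.6% of all genes were called, and 2 of 6 in sham males, where 15.7% were. With limma-voom and sample weights these counts were 2 in sham females and 0 in sham males, while both shares are of edgeR's test. The female calls were of every member but Gpm6a, whose sham medians were 14.8 CPM in SAT and 7.44 CPM in BAT. The male calls were of Upk1b and Bnc1, which had 3 and 2 reads over the male BAT sham libraries. In sham males the medians of Gpm6a were 2.56 CPM in SAT and 6.22 CPM in BAT.

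**Figure D2:**
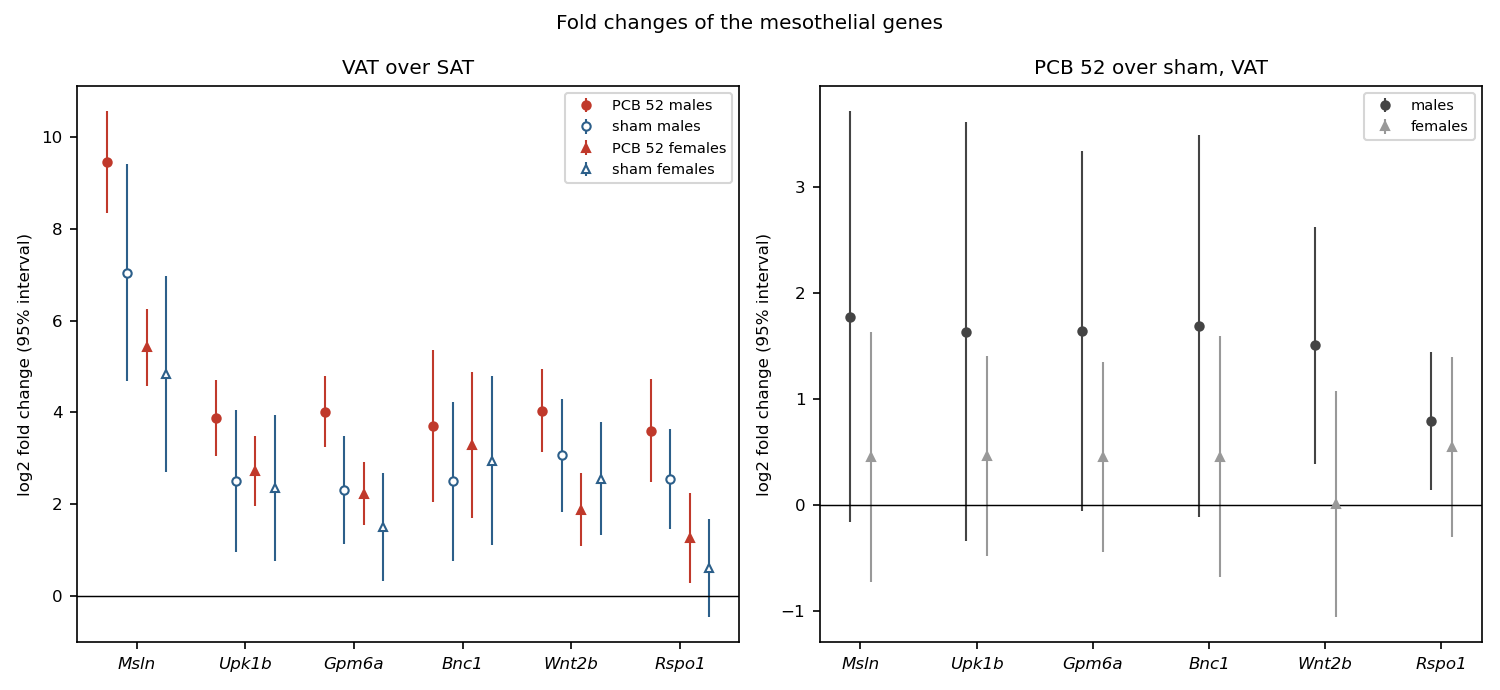
Log2 fold changes of the 6 genes with 95% intervals from edgeR's quasi-likelihood fit, VAT over SAT in the 4 groups of sex and treatment (left) and PCB 52 over sham in VAT (right). On the left every interval but that of Rspo1 in sham females lies above 0; on the right 4 of the 6 male intervals and all 6 female intervals include 0.

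No member passed the test between PCB 52 and sham rats in any depot, by edgeR, DESeq2 or limma-voom. In male VAT the mean of each of the 6 was larger in PCB 52 than in sham. In female VAT the PCB 52 range lay inside the sham range for 5 of 6, Rspo1 being the exception. PCB 52 and sham libraries overlapped for every member in both sexes, while every PCB 52 library was above every sham library for 0.299% of all genes in male VAT and 0.135% in female VAT. Msln in male VAT had 97.4 to 392.2 CPM in PCB 52 and 4.04 to 289.5 CPM in sham, with means of 294 ± 120 CPM (SD, n = 5) and 86.3 ± 107 CPM (SD, n = 6). The lowest PCB 52 library, animal 13, was below the highest sham library, animal 1, so the groups overlapped. The log2 fold change was 1.78 (SE 0.876, 95% interval -0.16 to 3.72), with an unadjusted p of 0.0684 and an adjusted p of 0.747 by edgeR's quasi-likelihood test. Across all genes in male VAT 0% were called after adjustment.

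**Figure D3:**
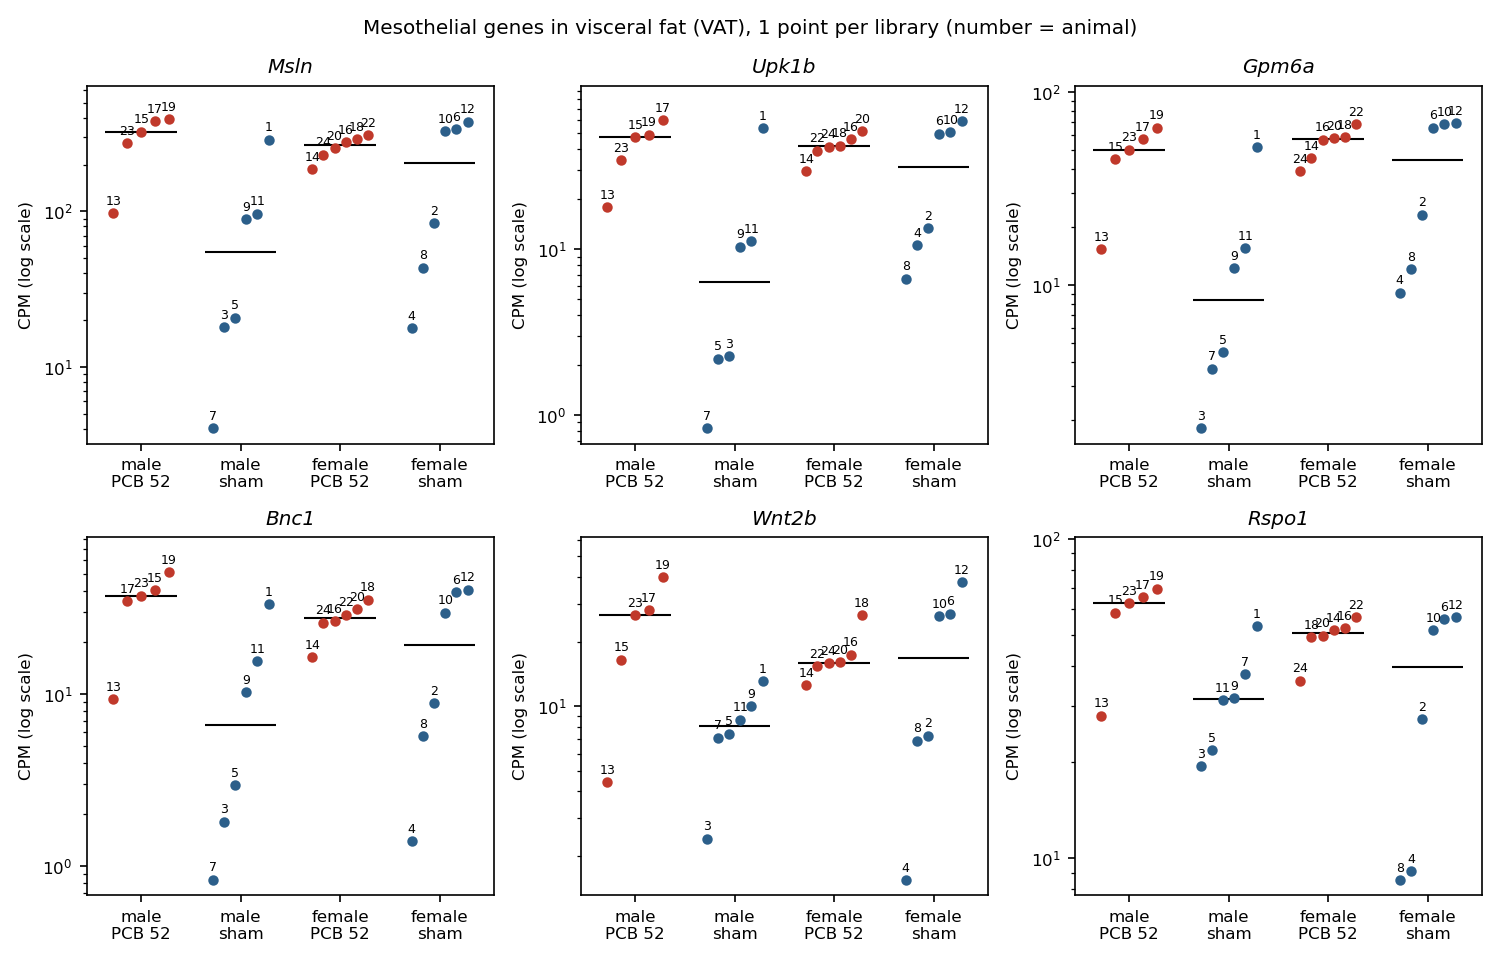
CPM of each mesothelial gene in every VAT library, PCB 52 left of sham within each sex, with each library's animal number. Male sham animal 1 stands above the other sham males for every gene, and female sham animals 2, 4 and 8 stand below all PCB 52 females for every gene.

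For the other members too, animal 1 was the highest male VAT sham library. Upk1b averaged 41.6 ± 16.1 CPM in PCB 52 and 13.4 ± 20.2 CPM in sham males, with a log2 fold change of 1.64 (SE 0.893, 95% interval -0.34 to 3.61). Gpm6a averaged 46.7 ± 19.1 and 14.9 ± 18.8 CPM in PCB 52 and sham males, with 1.65 (SE 0.768, interval -0.053 to 3.35), and Bnc1 34.6 ± 15.4 and 10.8 ± 12.5 CPM, with 1.69 (SE 0.814, interval -0.11 to 3.49). Wnt2b averaged 23.1 ± 13.4 CPM in PCB 52 males and 8.11 ± 3.53 CPM in sham males, with 1.51 (SE 0.508, interval 0.39 to 2.63, unadjusted p of 0.0128). Rspo1 averaged 56.9 ± 16.7 CPM in PCB 52 males and 32.5 ± 12.2 CPM in sham males, with 0.79 (SE 0.299, interval 0.14 to 1.44, unadjusted p of 0.0217). All 6 had an adjusted p of 0.747. Wnt2b and Rspo1 were the 2 of 6 with an unadjusted p under 0.05, a mark that 6.3% of the 11357 genes tested passed in either direction and 2.39% passed upward. The members' median log2 fold change was 1.64, against -0.03 over all genes.

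Without the 3 male VAT libraries that stood apart in other genes (PCB 52 animals 13 and 23 and sham animal 11), the male log2 fold changes were 2.13 for Msln, 1.92 for Upk1b, 1.92 for Gpm6a, 0.97 for Rspo1, 1.81 for Wnt2b and 2.10 for Bnc1, with adjusted p-values of 0.477 to 0.593. Without sham animal 1 they were 2.73 for Msln, 2.66 for Gpm6a, 2.51 for Bnc1, 1.70 for Wnt2b and 0.99 for Rspo1, with adjusted p-values of 0.178 to 0.309 over the 6 members. Markers of other cell types differed among these libraries, and their part in the result was not tested. The 5 fibroblast and progenitor markers summed to 2589 to 3897 CPM in PCB 52 and 2515 to 7556 CPM in sham males. Of these, 4 of the 5 had an unadjusted p under 0.05, as did 715 of the 11357 genes tested. Col1a1 had medians of 1624 CPM in PCB 52 and 3629 CPM in sham males. The medians of Dcn, Pi16 and Pdgfra were also lower in PCB 52, while that of Dpp4 was higher (50.5 and 36.0 CPM). The 5 markers of the male tract were between 0 and 343.6 CPM in PCB 52, highest in animals 13 and 23, and between 0 and 1588 CPM in sham males, highest in animal 11.

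In female VAT, Msln had 187.9 to 310.2 CPM in PCB 52 and 17.8 to 377.1 CPM in sham, with means of 259 ± 44.6 and 198 ± 166 CPM (SD, n = 6 each). Sham animals 2, 4 and 8 had 84.2, 17.8 and 43.5 CPM, below every PCB 52 female, and sham animals 6, 10 and 12 had 337.5, 327.0 and 377.1 CPM, above every PCB 52 female. Sham animals 2, 4 and 8 were the 3 lowest of the 12 females for all 6 members. The log2 fold change of Msln was 0.45 (SE 0.551, 95% interval -0.73 to 1.63, unadjusted p of 0.427, adjusted p = 0.776). The other members ran from 0.011 for Wnt2b (SE 0.499) to 0.55 for Rspo1 (SE 0.395), with adjusted p-values from 0.651 to 0.994. None of the 6 had an unadjusted p under 0.05, which 9.57% of all genes had, and their median was 0.46, against 0.01 over all genes. Without sham animals 4 and 8, whose summed brown adipocyte and skeletal muscle markers are given above, Msln was at -0.051, Wnt2b at -0.44, Bnc1 at -0.032, Upk1b at 0.030, Gpm6a at 0.012 and Rspo1 at 0.10.

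With both sexes of VAT in a single fit the log2 fold changes of PCB 52 over sham were 1.09 (SE 0.542) for Msln and between 0.67 and 1.05 for the others. No member was called, and Gpm6a and Rspo1 had an unadjusted p of 0.0325 and 0.0214, against a share of 6.89% of all genes under 0.05. The difference between the male and the female effect was 1.32 (SE 1.05, 95% interval -0.87 to 3.51, adjusted p = 0.602) for Msln and 1.49 (SE 0.777, adjusted p = 0.485) for Wnt2b, the largest of the 6. In that interaction test no member and 0% of all genes were called, and none of the members and 10.7% of all genes had an unadjusted p under 0.05.

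In SAT the female log2 fold changes of PCB 52 over sham lay between -0.31 for Gpm6a and 0.68 for Wnt2b, with 3 members above and 3 below 0 and unadjusted p-values of 0.232 to 0.924. In male SAT, Upk1b (0.25), Gpm6a (-0.10) and Rspo1 (-0.30) passed the filter on low counts and Msln, Wnt2b and Bnc1 did not. In BAT, Gpm6a passed it in both sexes, with 0.18 (SE 0.313) in males and 0.026 (SE 0.349) in females, and Rspo1 in males with -0.056 (SE 0.347). In SAT and BAT no member had an unadjusted p under 0.05. The share of all genes under it was 1.44% in male SAT, 5.12% in female SAT and 2.74% over both sexes of SAT, and 9.86% in male BAT, 3.63% in female BAT and 11% over both sexes of BAT. After adjustment 0% of all genes were called within a sex in either depot. Over both sexes of BAT, 0.00906% of genes were called, which is 1 gene and no member.

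Sex differences were tested in sham rats. In sham SAT, Gpm6a was lower in males, with 1.51 to 4.00 CPM (median 2.56) in males and 9.17 to 16.5 CPM (median 14.8) in females. Its log2 fold change of male over female was -2.36 (SE 0.369, adjusted p = 0.0163), the only call among the 5 members tested, where 1.09% of all genes were called. The call was lost without male SAT sham animal 5 (log2 -2.28, adjusted p = 0.058). Rspo1 had -2.11 (SE 0.609, adjusted p = 0.112), Wnt2b -1.71 (SE 0.624, adjusted p = 0.178) and Upk1b -1.50 (SE 0.667, adjusted p = 0.242). With Gpm6a, these made 4 of 5 members with an unadjusted p under 0.05, against 19.6% of all genes. Msln did not pass the filter in that comparison and had medians of 0.477 CPM in male and 3.44 CPM in female SAT sham. Summed markers of mammary and surface epithelium (10 of 10 measured) were 3.29 to 223001 CPM in male and 4835 to 24633 CPM in female SAT sham, and their part in the sex difference was not tested.

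In sham VAT none of the 6 members differed by the test between males and females, where 11.5% of all genes were called by edgeR. DESeq2 also called 0 members and limma-voom 1, Gpm6a (log2 -2.48, adjusted p = 0.0495). No member had an unadjusted p under 0.05, against 27.7% of all genes. The log2 fold changes of male over female ran from -1.54 for Gpm6a (SE 0.739, 95% interval -3.13 to 0.052) to -0.17 for Rspo1 (SE 0.447), with a median of -1.25, against 0.02 over all genes. Without male VAT sham animal 1, Upk1b (-2.70, adjusted p = 0.029) and Gpm6a (-2.56, adjusted p = 0.0216) were called lower in males. Summed markers of ovary, oviduct and uterus (3 of 5 measured, mostly Star) were 121.3 to 349.7 CPM in female and 2.02 to 23.2 CPM in male VAT sham. The male tract markers had 0 CPM in female VAT sham and up to 1588 CPM in male VAT sham. The part of either list in the sex difference was not tested. In BAT Gpm6a alone passed the filter, with -0.34, and 0.0652% of all genes were called.

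The members moved together from one VAT library to the next. After group means were removed, the 15 pairwise correlations of log2 CPM over 23 VAT libraries ran from 0.645 to 0.982, with a median of 0.826. Msln and Bnc1 were the closest pair at 0.982, Msln and Upk1b had 0.949, and the lowest value was between Upk1b and Wnt2b. The secreted pair, Wnt2b and Rspo1, had 0.849. In SAT the 15 values ran from -0.453 for Msln and Rspo1 to 0.420 for Wnt2b and Rspo1, with a median of 0.101, at levels of a few reads for some members. These values describe libraries that share a depth and a composition for every gene, and carry no test.

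**Figure D4:**
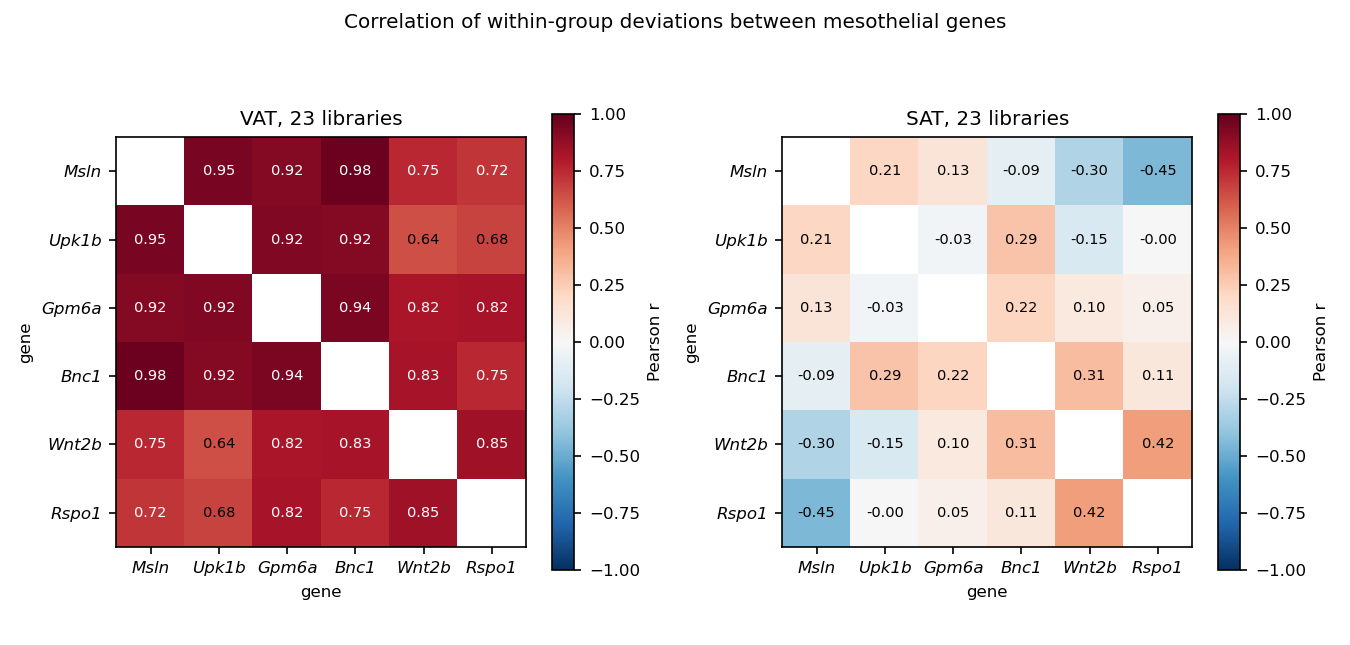
Pearson correlations between the mesothelial genes of log2 CPM after removal of group means, over the VAT libraries (left) and the SAT libraries (right). All 15 VAT values are positive, from 0.645 to 0.982, and the SAT values scatter around 0.

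The ratio of the highest to the lowest VAT library was larger in sham than in PCB 52 for 5 of 6 members in males and 6 of 6 in females. Wnt2b in males was the exception, with 9.07 in PCB 52 and 5.41 in sham. The highest Msln level was 71.6 times the lowest in male VAT sham and 21.2 times in female VAT sham. In PCB 52 rats the ratio was 4.03 in male VAT and 1.65 in female VAT. The share of all genes with a larger ratio in sham was not computed, and the members share their extreme libraries. Male sham animal 1 was the highest of its group for all 6 members. In female VAT sham the lowest was animal 4 or 8 for every member, the libraries whose brown adipocyte markers are given above. Without them the lowest Msln level there was 84.2 CPM, in animal 2. The spreads themselves were not tested against each other. Summed over the 6 members, VAT levels were 172.2 to 667.6 CPM in male PCB 52, 45.8 to 494.4 CPM in male sham, 343.6 to 518.9 CPM in female PCB 52 and 49.5 to 640.1 CPM in female sham.

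The genes outside the set whose pattern was most like that of the members in VAT were Fmod, Inhca, P4ha3, Tm4sf4, Cldn15, Gata5, Pkhd1l1, Flt3, Slc6a4 and Chst4. Likeness was the Pearson correlation of each gene with the members' mean, within groups and over 23 libraries. It was 0.982 for Fmod, the collagen-binding proteoglycan fibromodulin, 0.963 for P4ha3, a collagen prolyl hydroxylase subunit, and 0.958 for Cldn15, a claudin of tight junctions. It was 0.956 for Gata5, a zinc finger transcription factor, and 0.953 for Slc6a4, the serotonin transporter. Over 11658 genes the median was 0.0747 and the 99th percentile 0.701. Fmod had a median of 145.0 CPM in male VAT PCB 52, 37.1 CPM in male sham, 151.3 CPM in female PCB 52 and 115.6 CPM in female sham. Gata5 had at most 10.1 CPM in VAT, at most 0.146 CPM in SAT and no read in BAT. Inhca, in contrast, had medians of 6.77 CPM in VAT and 24.7 CPM in SAT of sham males. In the other groups of sex and treatment its median was higher in VAT than in SAT.

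Of 14 further genes used as marks of mesothelium, 12 were measured and 11 passed the filter in VAT and SAT. Wt1, a zinc finger factor of the coelomic lining, had 41.6 to 67.0 CPM in male VAT PCB 52, 32.4 to 73.0 CPM in male VAT sham, 29.97 to 54.4 CPM in female VAT PCB 52 and 8.81 to 62.7 CPM in female VAT sham. It had no read in any BAT library and none in SAT except in 2 male PCB 52 libraries, at up to 0.149 CPM. Aldh1a2, an enzyme of retinoic acid synthesis, was higher in VAT than in SAT by log2 3.79 in PCB 52 males, 3.67 in sham males, 4.64 in PCB 52 females and 4.81 in sham females. Nkain4 was higher by 4.11 to 5.34 and Cldn15 by 2.05 to 5.29 over the same groups. Wt1, Aldh1a2, Nkain4 and Cldn15 were called in all 4. Cldn15 in sham males lost its call with limma-voom (adjusted p = 0.136).

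Keratins of the list went the other way. Krt8, Krt18 and Krt19, intermediate filament genes that mesothelium shares with other epithelia, fell in VAT relative to SAT in both groups of females, and Krt19 also in both groups of males. Krt8 had a log2 fold change of -2.97 in PCB 52 females and -3.41 in sham females, that of Krt18 -4.84 and -4.23, and that of Krt19 was -1.98 in PCB 52 males and -2.61 in sham males. Krt19 lost its call in 11 of 42 alternatives in PCB 52 males, in 3 of 42 in sham males (limma-voom, the rat as a block and without SAT animal 1, adjusted p up to 0.0833) and in 1 of 42 in sham females (without the libraries that stood apart, adjusted p = 0.0657). Krt18 had 2.74 to 7.73 CPM in female VAT PCB 52 and 124.9 to 216.4 CPM in female SAT PCB 52. The summed epithelial markers were at most 31.8 CPM in female VAT and reached 35396 CPM in female SAT, and their part in the keratin levels was not tested. Pdpn was also called lower in sham females (-0.93), a call that 12 of 42 alternatives did not keep, and Cdh2, a cadherin, higher (1.24), a call lost in 2 of 42. Between sham males and sham females in VAT, 1 of 11 list genes was called, where 1291 of 11203 genes tested were called. It was Tbx18, a T-box transcription factor, lower in males (-1.42) and lost in 4 of 17 alternatives. With adjusted p under 0.05, VAT over SAT gave 4 genes up and 1 down of the 11 in PCB 52 males (8.79% and 16.2% of all genes), 4 and 1 in sham males (8.3% and 10.2%), 4 and 3 in PCB 52 females (21% and 26.6%) and 5 and 4 in sham females (19.7% and 27.8%). Their medians were 0.19, -0.66, -0.06 and -0.002 in these 4 groups. Calb2, calretinin, had at most 1.17 CPM in VAT.

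Between PCB 52 and sham VAT none of the 11 list genes was called in either sex by edgeR. In males all 11 log2 fold changes were positive, with a median of 0.51, against -0.03 over all genes; Cldn15 had the lowest unadjusted p (log2 1.28, unadjusted p of 0.0098, adjusted p = 0.747). In females 9 of 11 were positive, with a median of 0.23, and Krt18 alone had an unadjusted p under 0.05 (log2 -1.02, adjusted p = 0.52). Wt1 had log2 0.27 (SE 0.202) in males and 0.30 (SE 0.401) in females.

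The WNT and R-spondin pathway was read from 44 genes of ligands, receptors, secreted inhibitors and targets, of which 39 were measured. VAT over SAT gave 5 up and 3 down of 35 tested in PCB 52 males, 5 and 1 of 34 in sham males, 5 and 14 of 35 in PCB 52 females and 6 and 10 of 34 in sham females, against the shares of all genes given for the same rule above. The list medians were -0.24, 0.11, -0.50 and -0.42. In PCB 52 females the lowest p-values were of Nkd2, an inhibitor of Dishevelled (-2.49), Dkk2, a secreted WNT antagonist (3.38), and the WNT receptors Fzd4 (2.14), Fzd2 (-1.34) and Fzd6 (-1.63). In sham females they were of Fzd6 (-1.56), Fzd4 (2.82), Wnt5b (-2.92), Dkk2 (3.39) and Nkd2 (-2.21). In PCB 52 males they were of the secreted WNT binding proteins Sfrp2 (-2.54) and Sfrp4 (-2.94), of Wnt5a (1.44), Nkd2 (-1.10) and Fzd4 (1.14). In sham males they were of Wnt5b (2.14), Rspo3 (2.43), Fzd8 (1.15), Sfrp5 (2.02) and Sfrp4 (-1.84). Wnt5b was thus called higher in VAT than in SAT in sham males and lower in sham females.

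None of the pathway genes was called between PCB 52 and sham VAT in either sex. In males 4 of 31 had an unadjusted p under 0.05, against 6.3% of all genes: Sfrp5 (-1.74), Sfrp4 (-1.59), Sfrp1 (-0.80) and Sfrp2 (-1.81), all with an adjusted p of 0.747, and in females 3 of 30 did, against 9.57% of all genes: Nkd1 (0.82), Fzd8 (0.53) and Lgr4 (-0.23). Between sham males and sham females in VAT, 7 were called higher in males and 3 lower, of 30 tested, where 6.19% of all genes were called higher and 5.34% lower. By p these were led by Fzd6 (0.83), Rspo3 (1.80), Dkk2 (-1.23), Fzd8 (0.87) and Fzd1 (-0.58). Of the 10, Fzd6 and Dkk2 kept their calls in all 17 alternatives. Rspo3 lost its call in 1 of them, Fzd1 in 5, Fzd8 in 6, Fzd2 in 8, Lrp5, Lrp6 and Sfrp1 in 12 each and Wnt5b in 13. In SAT, 2 of 33 were called lower in sham males than in sham females, against 0.748% of all genes: Wnt5b (-4.04) and Wnt4 (-2.68). Wnt4 lost its call in 5 of 16 alternatives, each without 1 library (adjusted p up to 0.0809).

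Close relatives of the members by sequence were compared in the same way. Of 11 paralogues, 10 were measured, and between VAT and SAT none of 7 tested was called in PCB 52 males and none of 6 in sham males, by the rule of an adjusted p under 0.05, whose shares of all genes are given above for the further mesothelial genes. In PCB 52 females, of 7 tested, Upk3bl1 (2.50) was called higher (21% of all genes) and Lrrn1 (-3.21) and Upk1a (-2.90) lower (26.6%). In sham females, of 6 tested, Bnc2 (1.38), the second basonuclin, was called higher (19.7%) and Lrrn1 (-3.97) lower (27.8%). Between sham males and sham females, Gpm6b, a relative of Gpm6a, was called lower in males in VAT (-1.89) and in SAT (-2.28), and Lrrn1 in SAT (-3.85). By the same rule 598 of 11203 genes tested were called lower in males in VAT and 87 of 11626 in SAT. In SAT the call of Gpm6b was lost in 4 of 16 alternatives and that of Lrrn1 in 1. The uroplakin genes Upk1a, Upk2 and Upk3a, marks of the bladder lining, where Upk1b is also made, summed to at most 0.522 CPM in female VAT PCB 52, while among sham females the sum was 70.3 CPM in VAT of animal 4 and, second, 39.5 CPM for animal 6. In sham animal 10 all were present, with Upk1a at 8.58 CPM, Upk2 at 5.293 CPM and Upk3a at 7.153 CPM. In the other 3 sham females the sum was at most 0.583 CPM. Upk1b in animals 4, 6 and 10 was 10.5, 49.5 and 50.5 CPM, and 6.64 to 58.7 CPM in the other 3. Without any 1 of animals 4, 6 and 10, Upk1b remained called in VAT over SAT of sham females (log2 2.17 to 2.51) and was not called in PCB 52 over sham (0.29 to 0.64). Gene copies of near-identical sequence could share reads, and how the counting treated them was not given in the sources used here.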

How the data were processed

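RNA was sequenced from 70 samples of BAT, SAT and VAT. Per the labels' protocols, samples with an RNA integrity number below 8 were excluded. The submitters' processing notes name FastQC, HISAT2 and build rn6. The counting program, its annotation and its use of strand were not given in the sources used here, so counts of overlapping and antisense genes are uncertain.

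Raw counts per gene came as 6 tables deposited by the authors, 1 per sex and depot. The female VAT table as deposited was handled as estimated counts, since lines below its genes hold sums and means; these lines were dropped, and the gene counts needed no rounding. Of 15319 NCBI gene numbers, 15230 matched a RefSeq symbol (assembly GRCr8) and 89 did not.

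The tests were run in edgeR 4.0.16 with R 4.3.3 (TMM normalization, filterByExpr by group, robust quasi-likelihood F test, Benjamini-Hochberg adjustment over all genes tested, threshold 0.05). Fold changes are log2, with SE taken as the estimate over the square root of F and 95% intervals from the test's residual degrees of freedom. Depot comparisons used the 6 groups of 1 treatment without a term for the animal. Libraries of equal animal number were read as 1 rat, from the numbers in the labels. Over 68 such pairs of depots the median correlation of deviations from group means was 0.071, and 27 exceeded 0.1. In 22 of the 68 the library of equal number had the highest correlation among the 5 or 6 libraries of the other depot's group. Alternatives were RLE scaling, DESeq2 1.42.0, voom with sample weights in limma 3.58.1, no filter, each library left out, the libraries that stood apart left out, the animal as a block, wider fits and other fold minimums. The steps were tested on simulated data. Levels and correlations were computed in Python 3.11.15 with pandas 2.3.3, the correlations on log2 CPM with a prior count of 2.

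The members and lists were chosen with earlier results of these data known. All members were named wherever they passed the filter, with up to 5 called genes of the pathway list in order of p, up to 5 called genes of each short list, all in VAT over SAT, in PCB 52 over sham VAT and between the sexes, and the 10 genes most like the members in VAT. Of list genes that were not called, those with a low unadjusted p, Wt1, Pdpn and Calb2 were picked after their values were seen. No 2 libraries of a group were identical, and over 170 pairs the chi-square per gene was at least 3.22, so none were merged. Nothing beyond the animal numbers says that samples of a group are separate rats; if they are not, p-values measure a smaller spread than that between animals.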

Additional observations from a re-analysis of the deposited data

Results flagged for a closer look

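Dixon's criterion was applied to 62 sets of libraries, each 1 member in 1 group of 5 or 6 libraries. In 14 sets 1 library lay far from the others. The criterion's chance rate of about 1 in 20 is for normally distributed values. These were CPM, with almost no reads in some BAT sets, and the sets share libraries. The number of sets marked therefore cannot be weighed against that rate. In male VAT sham, animal 1 was the highest for Upk1b (53.5 CPM, next 11.1), Msln (289.5 CPM, next 96.8) and Gpm6a (51.8 CPM, next 15.6). Sham animal 1 also had the highest Msln level of male BAT sham, 1.59 CPM, and the highest Bnc1 level of male SAT sham, 4.89 CPM. Rspo1 was lowest in female VAT PCB 52 animal 24 (36.0 CPM, next 49.1) and in male VAT PCB 52 animal 13 (27.9 CPM, next 58.7). In animal 13 Msln was the highest of male BAT PCB 52, at 0.664 CPM, and Bnc1 the highest of male SAT PCB 52, at 11.1 CPM (next 2.56).

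In female SAT, Rspo1 stood at 108.3 CPM in PCB 52 animal 14 (next 14.8) and at 86.3 CPM in sham animal 2, and Bnc1 at 9.30 CPM in sham animal 6 (next 2.44). Wnt2b was highest in female VAT PCB 52 animal 18, at 26.6 CPM (next 17.4). Bnc1 had 1.22 CPM in female BAT PCB 52 animal 22, the one library of that group with a read of the gene. The BAT values rest on a few reads each.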

How the results depend on the processing

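With a log2 fold minimum of 3 in place of 1, members called in VAT over SAT numbered 2 in sham males, 2 in PCB 52 females and 1 in sham females. The shares of all genes under that rule are given above with the depot comparison. With voom the counts were 3 for VAT over SAT in sham males, 0 and 2 for SAT over BAT in sham males and sham females, 3 for male over female in sham SAT and 1 in sham VAT. DESeq2 gave 3 for male over female in sham SAT, and leaving out the libraries that stood apart gave 2. A fit of all 70 libraries gave 1 member whose VAT over SAT difference differed between sham males and females. With 1 library left out at a time, counts ran from 3 to 6 for VAT over SAT in sham males, from 0 to 1 for its difference between the sexes, from 0 to 2 for male over female in sham SAT and from 0 to 2 in sham VAT. Shares of all genes are given for edgeR's main fit and not for these refits. Whether the counts of all genes moved alike is therefore not shown. Without the libraries that stood apart, 3 members turned in PCB 52 over sham in female VAT: Msln to -0.051, Wnt2b to -0.44 and Bnc1 to -0.032. Gpm6a in VAT over BAT of sham males turned to -0.17 with voom and ran from -0.082 to 1.19 with 1 library left out. Leave-one-out ranges that crossed 0 were -0.22 to 0.40 for Wnt2b in PCB 52 over sham of female VAT, -1.44 to 0.43 for Bnc1 in male over female of sham SAT and -0.38 to 0.030 for Rspo1 in sham VAT. With the rat as a replicate block, members called in VAT over SAT were 6 in PCB 52 males, 4 in sham males, 6 in PCB 52 females and 4 in sham females; Upk1b (2.00, adjusted p = 0.062) and Gpm6a (1.74, adjusted p = 0.0583) were lost in sham males and Gpm6a (1.38, adjusted p = 0.0787) in sham females, and the block changed no other call of a member. The cause of these changes was not tested. RLE scaling and no filter changed no direction. Depth limits the members in BAT and male SAT, where several had a few reads per library.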
